A study of Mus musculus with 36 samples.

Results

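The Hox genes were described in fibroblasts of fetal mouse tendon, skin and cornea, by cluster and by position within the cluster. They were taken as all probe sets whose platform annotation gives exactly 1 symbol made of Hox, a cluster letter from a to d and a number. This gave 33 genes of 18193 measured, represented by 48 probe sets of the 35041 that carry 1 symbol. The Hoxa cluster gave 9 genes, the Hoxb cluster 9, the Hoxc cluster 7 and the Hoxd cluster 8. Other Hox genes were not analysed here. The cells were primary fibroblasts of CD1 fetuses at day 19 after conception, cultured through several population doublings on their way to gelatin-coated glass. Tendon, skin and corneal cells were either exposed to laminar flow in a parallel plate chamber (shear stress 0.1 dyn/cm2) for 14 h or kept in still medium for the same time, both with 2% serum. Each of the 6 groups (tendon flow, tendon static, skin flow, skin static, cornea flow, cornea static) has 3 libraries, and each of the 18 libraries was hybridised to chip A and chip B of the Affymetrix MOE430 set. The labels do not say whether the replicates of a group came from separate fetuses, nor from which place on the body the skin and tendon were taken, and the p-values describe only the spread among these libraries, which may be technical.

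Hox genes encode homeodomain transcription factors that tell cells of the embryo where they lie along the body. They sit in clusters on different chromosomes, here on chromosomes 6 (Hoxa), 11 (Hoxb), 15 (Hoxc) and 2 (Hoxd). A gene's number gives its place in the cluster. Genes with low numbers are switched on near the head end and genes with high numbers toward the tail and the tips of the limbs. Fibroblasts are known to keep such a positional Hox pattern in culture. Tissue formed by neural crest of the front of the head, such as the corneal stroma, is known to lack most Hox expression. All values below are log2 expression values after RMA normalisation, so a difference of 1 is a doubling. Levels are compared between libraries for 1 probe set at a time, never between genes. The files used here give no background level for a probe set, so a low value cannot be read as presence or absence, and differences of dim probe sets are compressed. In these bulk cultures, fewer expressing cells and less RNA per cell cannot be told apart.

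The deposited description of the 6 arrays of tendon flow names the cornea, whereas tendon is given by the titles, the source names and the scan records. These arrays were taken as tendon, and the tissue comparisons are also given between the static groups alone. Hoxb13 averaged 7.23 in tendon flow and 7.70 in tendon static, against 5.00 in cornea flow and 4.99 in cornea static. Of the tissue markers, Thbs4 (a tendon matrix protein) averaged 8.79 ± 0.49 in tendon, 5.87 ± 0.16 in skin and 6.16 in cornea, while the tendon factor Scx (5.65 in tendon, 5.47 in skin and 6.07 in cornea) did not mark tendon. The dermal marker Dpt averaged 8.51 in tendon, 10.77 in skin and 6.38 in cornea. Of the 7 dermal markers, 4 were called in tendon against skin, with Dpt, Twist2 and Tbx15 lower and Crabp1 higher (0.90). Kera, which defines corneal keratocytes, did not mark the cornea (4.86 in tendon, 4.73 in skin and 4.67 in cornea). Aldh3a1, a corneal enzyme, was highest in cornea (6.27 in tendon, 6.70 in skin and 7.43 in cornea). The mean of the 7 tendon markers lay between 8.76 and 9.22 in tendon, 7.93 and 8.58 in skin and 7.95 and 8.7 in cornea. For the 5 measured keratocyte markers it lay between 7.03 and 7.5 in tendon, 6.95 and 7.09 in skin and 7.23 and 7.65 in cornea. In tendon against cornea 3 of these 5 were called, 1 higher and 2 lower. Of 8 fibroblast markers 4 were called there, 3 higher and 1 lower. The mean of the 6 keratinocyte markers lay between 5.61 and 5.87 in tendon, 5.44 and 5.87 in skin and 5.66 and 5.79 in cornea. Among markers of other cell types, Csf1r (0.66) and Cd68 (0.45), 2 of 5 blood markers, and the muscle actin Acta1 (1.10) were higher in skin than in cornea. Mitf, of melanocytes, was higher in tendon (1.55) and in skin (0.93) than in cornea, and the cartilage factor Sox9 was lower in both (-0.46 and -0.39). The endothelial receptor Kdr was lower in tendon than in cornea (-0.54), and Acta1 (-1.31) and the pericyte marker Cspg4 (-1.08) were lower in tendon than in skin. The mean of the blood markers lay between 6.6 and 6.90 in tendon, 6.74 and 7.07 in skin and 6.4 and 6.81 in cornea, and that of the muscle markers between 6.52 and 6.68 in tendon, 6.64 and 6.90 in skin and 6.45 and 6.61 in cornea. The part of these markers in the Hox differences was not tested. As a measure of RNA length, the 5' signal of beta-actin on chip A was subtracted from its 3' signal on the log2 scale. This log2 difference averaged 1.23 in tendon, 0.96 in skin and 0.90 in cornea, and its part in the tissue differences was not tested.

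The stretches before the start sites of 4 Hox genes are shown as examples of called genes of both directions among the 19 measured Hox genes matched in the RefSeq promoter table. Hoxa10 and Hoxa11 were higher in tendon than in skin, and Hoxd8 and Hoxd9 were lower. They are the 250 bases before the start site in the RefSeq annotation of build GRCm38.p6, read 5′ to 3′ on the gene's strand, at chr6:52234940-52235189 (minus strand) for 1 of the 2 listed starts of Hoxa10, chr6:52245811-52246060 (minus) for Hoxa11, chr2:74704365-74704614 (plus) for Hoxd8 and chr2:74697513-74697762 (plus) for Hoxd9. Capitals mark TAAT, the core bound by many homeodomains, and TTTAT, a core found in sites of Hox proteins with high numbers, each on either strand (ATTA and ATAAA on the other strand). A match of one may overlap a match of the other.
Hoxa10: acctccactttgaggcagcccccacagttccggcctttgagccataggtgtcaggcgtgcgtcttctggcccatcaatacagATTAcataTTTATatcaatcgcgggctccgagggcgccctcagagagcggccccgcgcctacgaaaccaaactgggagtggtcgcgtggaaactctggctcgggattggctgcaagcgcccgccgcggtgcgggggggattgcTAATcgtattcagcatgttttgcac
Hoxa11: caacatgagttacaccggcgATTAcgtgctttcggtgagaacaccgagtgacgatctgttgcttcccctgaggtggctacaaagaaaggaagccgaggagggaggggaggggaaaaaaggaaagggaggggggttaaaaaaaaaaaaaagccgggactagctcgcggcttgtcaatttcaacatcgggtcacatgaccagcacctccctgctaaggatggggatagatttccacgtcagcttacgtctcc
Hoxd8: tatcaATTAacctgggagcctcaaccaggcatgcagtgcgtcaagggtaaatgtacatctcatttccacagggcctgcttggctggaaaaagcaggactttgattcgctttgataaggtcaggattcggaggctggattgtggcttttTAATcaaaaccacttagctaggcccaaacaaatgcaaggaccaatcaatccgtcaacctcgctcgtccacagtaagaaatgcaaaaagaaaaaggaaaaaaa
Hoxd9: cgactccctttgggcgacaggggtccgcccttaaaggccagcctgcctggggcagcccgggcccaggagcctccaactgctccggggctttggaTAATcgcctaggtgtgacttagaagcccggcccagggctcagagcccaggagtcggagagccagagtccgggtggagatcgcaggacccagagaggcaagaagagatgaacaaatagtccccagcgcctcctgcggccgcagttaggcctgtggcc
TAAT was found on either strand in 16 of 21 Hox promoters of 19 measured genes (76.2%), against 54.9% of the 32851 promoters of the same length in the RefSeq table. TTTAT was in 7 of the 21 (33.3%, against 37.3% of all). The longer TGATNNAT, a site for Hox proteins paired with Pbx cofactors, was in 3 (14.3%, against 7.68%). Hoxa10, Hoxa11, Hoxd8 and Hoxd9 each hold TAAT at least once, and TTTAT was found in the Hoxa10 stretch alone of these 4. The Hox promoters held a median of 13 CG dinucleotides (2 to 35), against 6 over all promoters. A match is a description of letters, not a binding site.

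Many Hox genes differed between the tissues, most of them lowest in cornea, and none passed for flow. Each tissue was taken as the mean of its flow and its static group, and a gene is called different at an adjusted p below 0.05 (limma, adjusted over all 18193 genes). Of the 33 Hox genes, 16 were higher in tendon than in cornea and 0 lower, where 5.69% of all genes were called in either direction, 2.61% higher and 3.08% lower (limma, with 23 Hox genes at an unadjusted p below 0.05, as 18.9% of all genes were). In skin against cornea 17 were higher and 0 lower, where 6.02% of all genes were called, 2.81% higher and 3.21% lower (limma, with 20 Hox genes at an unadjusted p below 0.05, as 15.7% of all genes were). In tendon against skin 13 were called, 4 higher and 9 lower, where 3.52% of all genes were called, 1.49% higher and 2.03% lower (17 Hox genes and 13.7% of all genes at an unadjusted p below 0.05). The median Hox difference was 0.28 in tendon against cornea (0.04 over all genes), 0.38 in skin against cornea (0.02 over all genes) and -0.03 in tendon against skin (0.02 over all genes). Cornea had the lowest tissue mean for 30 of the 33 Hox genes, as it had for 46% of all genes. The comparisons share libraries, tendon and skin both being set against the same 6 corneal libraries. The static groups leave out the flow libraries, among them those of tendon, whose labels conflict as given above. Between the static means 9 Hox genes were called in tendon against cornea, where 2.39% of all genes were. In skin against cornea 14 were called (2.41%) and in tendon against skin 9 (1.28%). The SE and p-values there still used the spread among all 18 libraries. Between the flow means of the same fit, 10 were called in tendon against cornea (1.62% of all genes). There 14 were called in skin against cornea (1.86%) and 11 in tendon against skin (1.05%).

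**Figure D1:**
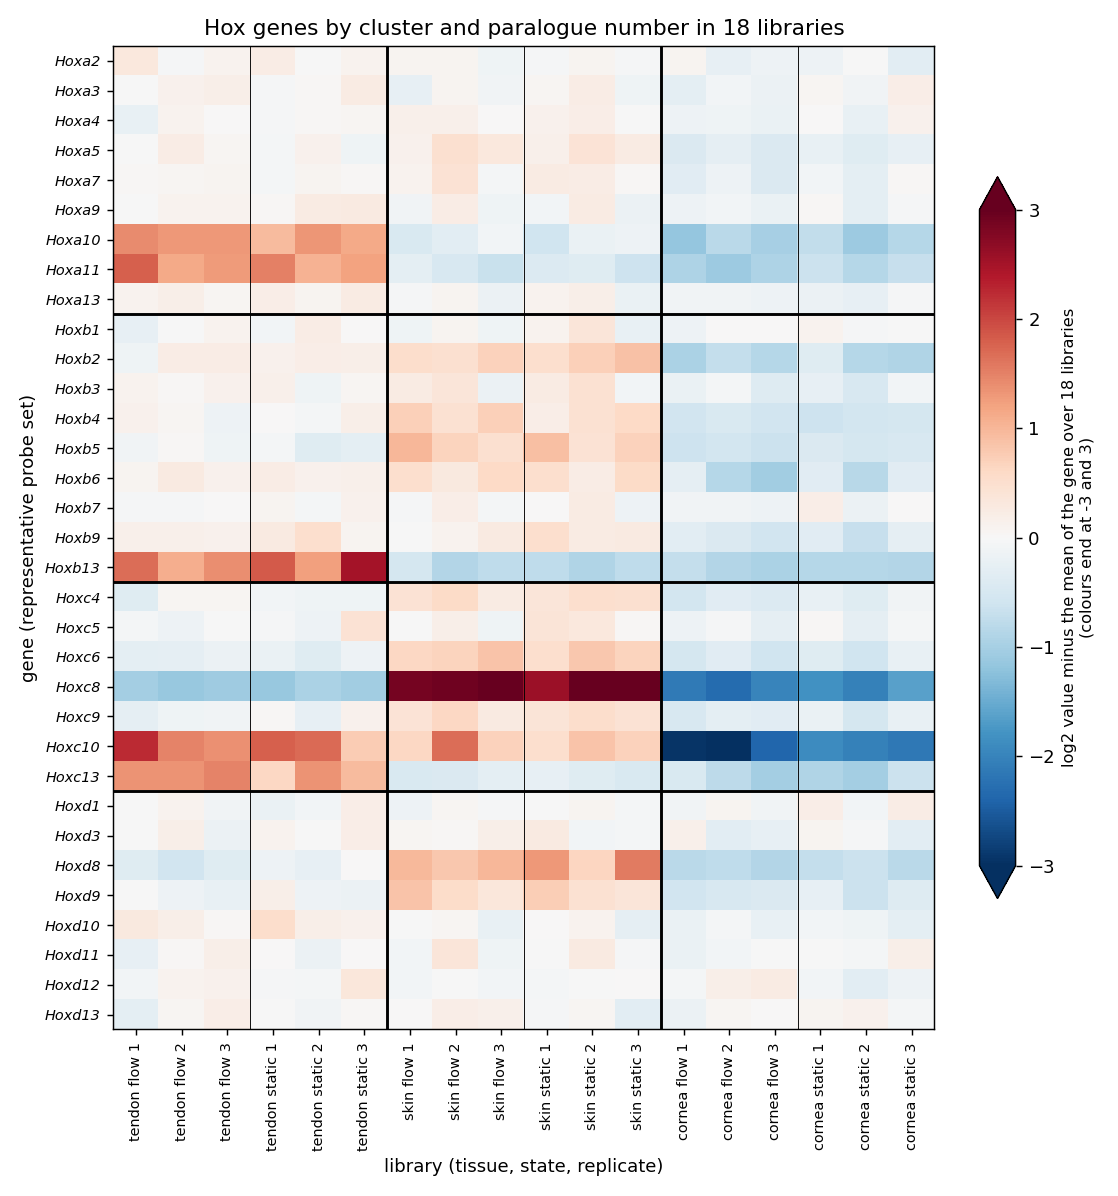
Colours give each gene's log2 value minus its mean over 18 libraries, with genes as rows by cluster and paralogue number and libraries as columns by tissue, state and replicate; black lines part the clusters and the tissues. Hoxa10, Hoxa11, Hoxb13 and Hoxc13 stand high in the 6 tendon libraries, Hoxc8 and Hoxd8 in the 6 skin libraries, and Hoxc10 in both tissues.

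The Hox genes raised in tendon over cornea by the largest differences lie toward the high-numbered end of the Hoxa, Hoxb and Hoxc clusters. Hoxc10, a lumbar and hindlimb gene, led, with Hoxb13, Hoxa10, Hoxa11 and Hoxc13 after it. Hoxc10 (probe set 1439798_at, chip B) was at 10.40, 9.65 and 9.53 in tendon flow and 9.96, 9.86 and 8.91 in tendon static, against 5.21, 5.17 and 5.79 in cornea flow and 6.28, 6.13 and 6.01 in cornea static. All 6 tendon libraries lay above all 6 corneal ones, and tendon exceeded cornea by 3.96 ± 0.21 (SE, 15.5-fold, adjusted p = 3.9e-09, limma). Within the scan batches of the arrays this difference was 4.97 in batch 1, with 2 tendon libraries and 1 corneal library, and 3.61 in batch 2, with 4 and 5.

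In the Hoxa cluster 4 of 9 genes were higher in tendon than in cornea. Hoxa10, which with its paralogues patterns the upper limb segment, was at 7.37, 7.23 and 7.24 in tendon flow and 6.89, 7.26 and 7.09 in tendon static, against 4.79, 5.12 and 4.94 in cornea flow and 5.20, 4.86 and 5.09 in cornea static. The groups lay wide apart, with a difference of 2.18 ± 0.10 (4.53-fold, adjusted p = 7.8e-10, limma). Hoxa11, which with its paralogues patterns the lower limb segment, was at 9.64, 8.99 and 9.14 in tendon flow and 9.36, 8.90 and 9.05 in tendon static, against 6.94, 6.76 and 6.94 in cornea flow and 7.20, 7.00 and 7.17 in cornea static. Its lowest tendon library stood above its highest corneal one, with a difference of 2.18 ± 0.11 (4.52-fold, adjusted p = 3.2e-09). The next members changed far less. Hoxa5, a gene of the neck and lung, had a lowest, median and highest value of 6.76, 6.91 and 7.12 in tendon and of 6.45, 6.58 and 6.67 in cornea, which do not overlap (difference 0.36 ± 0.08, adjusted p = 0.014). Hoxa13, a gene of the hand and foot plate, ran from 6.46 to 6.64 in tendon and from 6.16 to 6.36 in cornea (0.28 ± 0.08, adjusted p = 0.042), a call lost when any of 11 libraries was left out (adjusted p up to 0.095) and in the fit blocked by scan batch (adjusted p = 0.052). Hoxa2, Hoxa3, Hoxa4, Hoxa7 and Hoxa9 did not pass.

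In the Hoxb cluster 6 of 9 genes were higher in tendon than in cornea. Hoxb13, the last gene of its cluster and one of the tail end and the prostate, was at 7.52, 6.93 and 7.23 in tendon flow and 7.69, 7.08 and 8.34 in tendon static, against 5.14, 4.96 and 4.90 in cornea flow and 4.99, 4.99 and 4.98 in cornea static. Every tendon library was above every corneal one, tendon static 3 being the highest (difference 2.47 ± 0.16, 5.55-fold, adjusted p = 3e-08, limma). The difference was 2.31 ± 0.12 without that library. Hoxb2, a hindbrain gene, had a lowest, median and highest value of 7.53, 7.86 and 7.89 in tendon and of 6.72, 6.82 and 7.29 in cornea, again without overlap (0.91 ± 0.10, adjusted p = 2.7e-05). Hoxb6 ran through 6.32, 6.37 and 6.50 in tendon and 5.18, 5.65 and 5.97 in cornea, where it varied more (0.77 ± 0.13, adjusted p = 0.00093). Hoxb9 (0.65), Hoxb4 (0.58) and Hoxb5 (0.40) were called as well, Hoxb5 not without tendon flow 2, tendon static 1 or cornea flow 3 (adjusted p up to 0.063). Hoxb1, Hoxb3 and Hoxb7 did not pass.

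In the Hoxc cluster 3 of 7 genes were higher in tendon than in cornea, and Hoxc10 above was the first. Hoxc13, a gene of hair and nail, was at 8.83, 8.84 and 8.97 in tendon flow and 8.10, 8.84 and 8.43 in tendon static, against 7.02, 6.71 and 6.47 in cornea flow and 6.58, 6.46 and 6.84 in cornea static. The tissues did not overlap (difference 1.99 ± 0.12, 3.96-fold, adjusted p = 1.7e-08, limma). Hoxc8, a gene of the thorax, was at 6.33, 6.42 and 6.52 (lowest, median and highest) in tendon and at 5.15, 5.47 and 5.83 in cornea, a difference of 0.92 ± 0.13 (adjusted p = 0.00023). Hoxc4, Hoxc5, Hoxc6 and Hoxc9 differed by 0.13 to 0.24 and did not pass.

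The Hoxd cluster had 3 of 8 genes higher in tendon than in cornea, all by small differences. Hoxd8 had 6.85, 7.11 and 7.42 (lowest, median and highest) in tendon and 6.53, 6.63 and 6.78 in cornea, without overlap (0.49 ± 0.12, adjusted p = 0.02, limma). Hoxd10 had 4.01, 4.14 and 4.49 in tendon and 3.67, 3.81 and 3.90 in cornea, with only 2.66% of the probe sets of its chip dimmer (0.39 ± 0.09, adjusted p = 0.019). Hoxd9 had 7.31, 7.39 and 7.72 in tendon and 6.89, 7.07 and 7.29 in cornea (0.38 ± 0.10, adjusted p = 0.046). The Hoxd9 call was lost when any of 11 libraries was left out (adjusted p up to 0.12), the Hoxd8 call without tendon flow 1, tendon flow 3, tendon static 3 or cornea flow 3 (up to 0.055), and the Hoxd10 call without tendon flow 1, tendon static 1 or cornea static 3 (up to 0.052). Hoxd11, Hoxd12 and Hoxd13, the genes of the far limb, differed by 0.00 (Hoxd11), 0.09 (Hoxd12) and -0.03 (Hoxd13) and did not pass.

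In skin against cornea, the middle of the clusters held the largest share of called genes. By paralogue number, 4 of 10 genes numbered 1 to 4 were called, 7 of 9 numbered 5 to 8 and 6 of 14 numbered 9 to 13, with median differences of 0.19, 1.06 and 0.26. In tendon against cornea the same classes gave 2 of 10, 5 of 9 and 9 of 14, with medians of 0.20, 0.36 and 0.38. The classes hold few genes each and no test was made between them.

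Hoxc8 had the largest difference of any Hox gene in any comparison. It was at 10.34, 10.38 and 10.65 in skin flow and 10.04, 10.66 and 11.00 in skin static, against 5.35, 5.15 and 5.49 in cornea flow and 5.65, 5.45 and 5.83 in cornea static. Skin exceeded cornea by 5.03 ± 0.13 (32.6-fold, adjusted p = 5e-13, limma), and by 4.84 and 5.16 within scan batches 1 and 2. Hoxc10 was the next of the cluster, at 8.78, 9.83 and 8.86 in skin flow and 8.67, 9.01 and 8.86 in skin static, with no overlap with the corneal values above (3.23 ± 0.21, 9.41-fold, adjusted p = 4.9e-08). Hoxc6, a gene of the upper thorax, had 8.49, 8.65 and 8.84 (lowest, median and highest) in skin and 7.38, 7.54 and 7.75 in cornea (1.13 ± 0.08, adjusted p = 2.4e-07). Hoxc9 (0.79), Hoxc4 (0.77) and Hoxc13 (0.43) completed the 6 of 7 Hoxc genes called, and Hoxc5 (0.25) did not pass with its representative probe set. The Hoxc13 call against cornea was lost when any of 13 libraries was left out (adjusted p up to 0.12) and with the replicate block (0.43, adjusted p = 0.053).

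Of the Hoxb genes 6 of 9 were higher in skin than in cornea. Hoxb2 had a lowest, median and highest value of 8.15, 8.28 and 8.54 in skin and of 6.72, 6.82 and 7.29 in cornea (1.40 ± 0.10, 2.65-fold, adjusted p = 2.1e-07, limma). Hoxb5 had 6.85, 7.09 and 7.42 in skin and 5.76, 5.87 and 5.98 in cornea (1.25 ± 0.10, adjusted p = 3.8e-07). Hoxb4, a gene of the hindbrain and neck that also drives blood stem cells, had 7.71, 8.03 and 8.22 in skin and 6.88, 6.94 and 7.05 in cornea (1.07 ± 0.08, adjusted p = 3.8e-07). None of these 3 overlapped. Hoxb6 (1.06), Hoxb9 (0.67) and Hoxb3 (0.42) were also called, Hoxb3 with overlapping tissues and not when any of 10 libraries was left out (adjusted p up to 0.11) or in the fit blocked by scan batch (adjusted p = 0.051). Hoxb13, so high in tendon, was at 5.31, 4.96 and 5.09 in skin flow and 5.08, 4.95 and 5.08 in skin static, 0.08 ± 0.16 from cornea (adjusted p = 0.86).

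In the Hoxa cluster 3 of 9 genes were higher in skin than in cornea. Hoxa10 had 5.36, 5.69 and 5.86 (lowest, median and highest) in skin and 4.79, 5.02 and 5.20 in cornea (0.64 ± 0.10, adjusted p = 0.00073, limma). Hoxa5 had 7.03, 7.17 and 7.38 in skin and 6.45, 6.58 and 6.67 in cornea (0.62 ± 0.08, adjusted p = 0.00015). Hoxa7 had 7.70, 7.92 and 8.20 in skin and 7.33, 7.53 and 7.79 in cornea, which overlap (0.38 ± 0.09, adjusted p = 0.018), and its call was lost without skin static 1, cornea flow 3 or cornea static 2 (up to 0.054). Hoxa11 (0.38, adjusted p = 0.058) missed the threshold and passed it without tendon flow 1, tendon flow 2 or tendon static 1 (adjusted p from 0.022 to 0.049). In the Hoxd cluster, Hoxd8 and Hoxd9 were the 2 of 8 called. Hoxd8 had 8.05, 8.40 and 8.96 in skin and 6.53, 6.63 and 6.78 in cornea (1.82 ± 0.12, 3.53-fold, adjusted p = 4.9e-08). Hoxd9 had 7.88, 8.03 and 8.38 in skin and 6.89, 7.07 and 7.29 in cornea (1.01 ± 0.10, adjusted p = 9.7e-06).

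Against cornea, 12 Hox genes were called in both tendon and skin, 4 in tendon alone and 5 in skin alone. Being called in one tissue and not in the other does not show that the tissues differ, for which the direct comparison follows. Among all genes 3.85% had tendon and corneal libraries that did not overlap and 4.11% skin and corneal libraries, where 16 and 15 of the 33 Hox genes did, all of them higher than cornea. All 16 called differences in tendon and all 17 in skin kept their sign within both scan batches. This is no separate evidence, as the calls were made on the same libraries. Scan batch 1 holds only 1 corneal library.

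**Figure D2:**
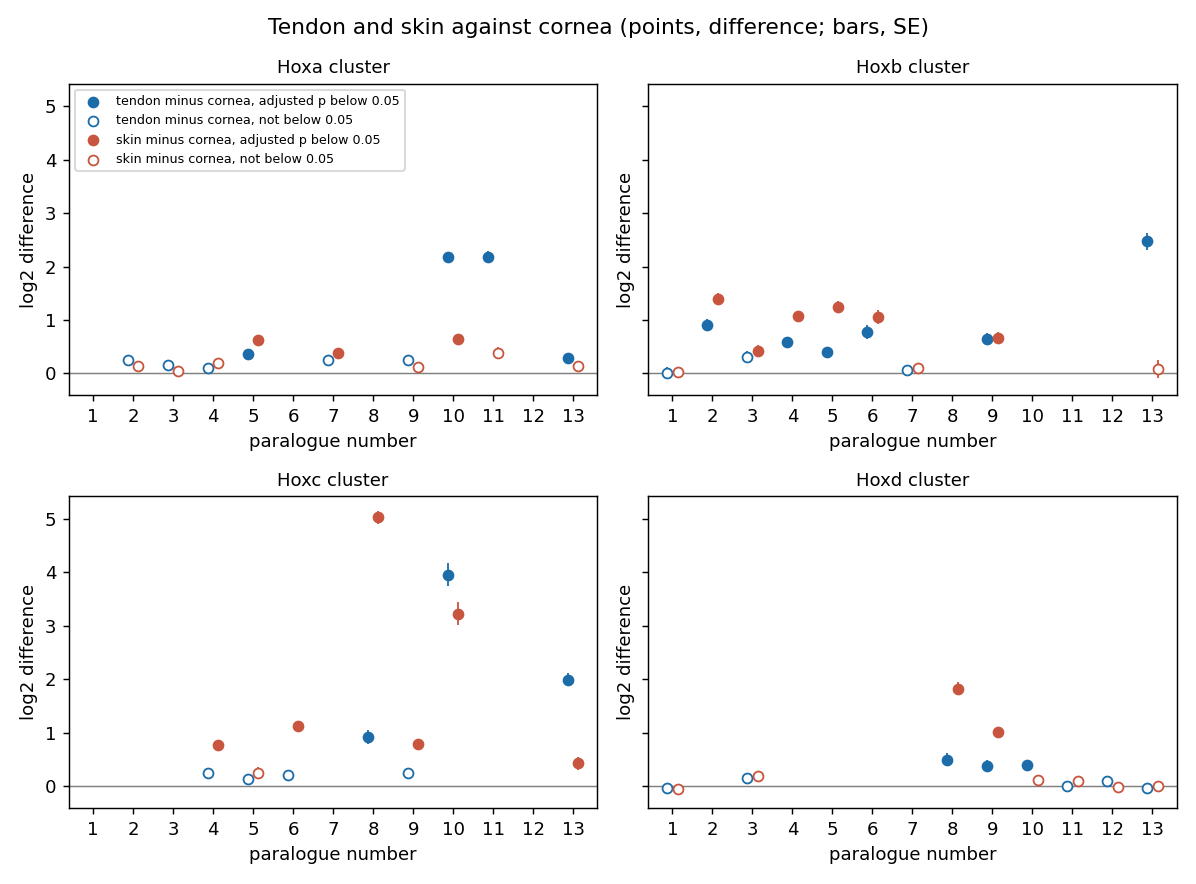
Points give the log2 difference of tendon (blue) and skin (red) from cornea by paralogue number in each cluster, bars the SE, filled points an adjusted p below 0.05. Tendon stands far above skin at Hoxa10, Hoxa11, Hoxb13 and Hoxc13, both are high at Hoxc10 (3.96 in tendon and 3.23 in skin), and skin stands far above tendon at Hoxc8 (0.92 in tendon and 5.03 in skin).

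By their representative probe sets, the genes called between tendon and skin divided by number. The 4 Hox genes higher in tendon all had numbers from 10 to 13, and the 9 lower in tendon all had numbers from 2 to 9. There are 10 measured genes numbered 10 to 13 and 23 numbered 1 to 9, and the boundary was read from these values. Most genes of either class were not called. No Hoxa gene was called lower in tendon and no Hoxd gene higher, so the clusters did not all show both directions. Another Hoxa9 probe set, given below, was higher in tendon despite its number (1.78 ± 0.14). Hoxb13 had the largest difference of tendon over skin, with the tendon and skin values given above and no overlap (2.39 ± 0.16, 5.23-fold, adjusted p = 9.2e-08, limma). Hoxa11 had 8.90, 9.10 and 9.64 (lowest, median and highest) in tendon and 7.20, 7.41 and 7.55 in skin (1.79 ± 0.11, 3.47-fold, adjusted p = 6.1e-08). Hoxc13 had 8.10, 8.83 and 8.97 in tendon and 7.02, 7.08 and 7.24 in skin (1.56 ± 0.12, 2.95-fold, adjusted p = 5e-07). Hoxa10 had 6.89, 7.24 and 7.37 in tendon and 5.36, 5.69 and 5.86 in skin (1.53 ± 0.10, 2.90-fold, adjusted p = 9.2e-08). All 4 were separate in every library and kept their call within static and within flow libraries. Hoxc10 leaned the same way without passing (0.72 ± 0.21, adjusted p = 0.081), with 1.46 within scan batch 1 and 0.35 within batch 2, and passed without tendon static 3 or skin flow 2 (0.89 each, adjusted p of 0.016 and 0.017).

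The genes lower in tendon than in skin came from the Hoxb, Hoxc and Hoxd clusters. Hoxc8 fell by 4.10 ± 0.13 on the log2 scale, with 6.33 to 6.52 in tendon and 10.04 to 11.00 in skin (17.2-fold lower, adjusted p = 1.2e-11, limma). Its libraries do not come near each other, and the difference was -3.80 in scan batch 1 and -4.25 in batch 2. Hoxd8 had 6.85 to 7.42 in tendon and 8.05 to 8.96 in skin (-1.33 ± 0.12, adjusted p = 3.4e-06). Hoxc6 had 7.63, 7.75 and 7.83 (lowest, median and highest) in tendon and 8.49, 8.65 and 8.84 in skin (-0.93 ± 0.08, adjusted p = 4.1e-06). Hoxb5 had 6.04, 6.30 and 6.45 in tendon and 6.85, 7.09 and 7.42 in skin (-0.85 ± 0.10, adjusted p = 4.4e-05). The other 5 were Hoxd9 (-0.64 ± 0.10), Hoxc9 (-0.54 ± 0.09, with 7.85, 8.01 and 8.25 in tendon and 8.40, 8.55 and 8.75 in skin), Hoxc4 (-0.53 ± 0.09), Hoxb2 (-0.49 ± 0.10) and Hoxb4 (-0.49 ± 0.08). None of the 13 calls was lost when any 1 library was left out. All 13 called genes had separate tissues and kept their sign within both scan batches. Both follow in part from the calls, which were made on the same libraries. Of all genes, called or not, 3.13% had separate tissues.

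**Figure D3:**
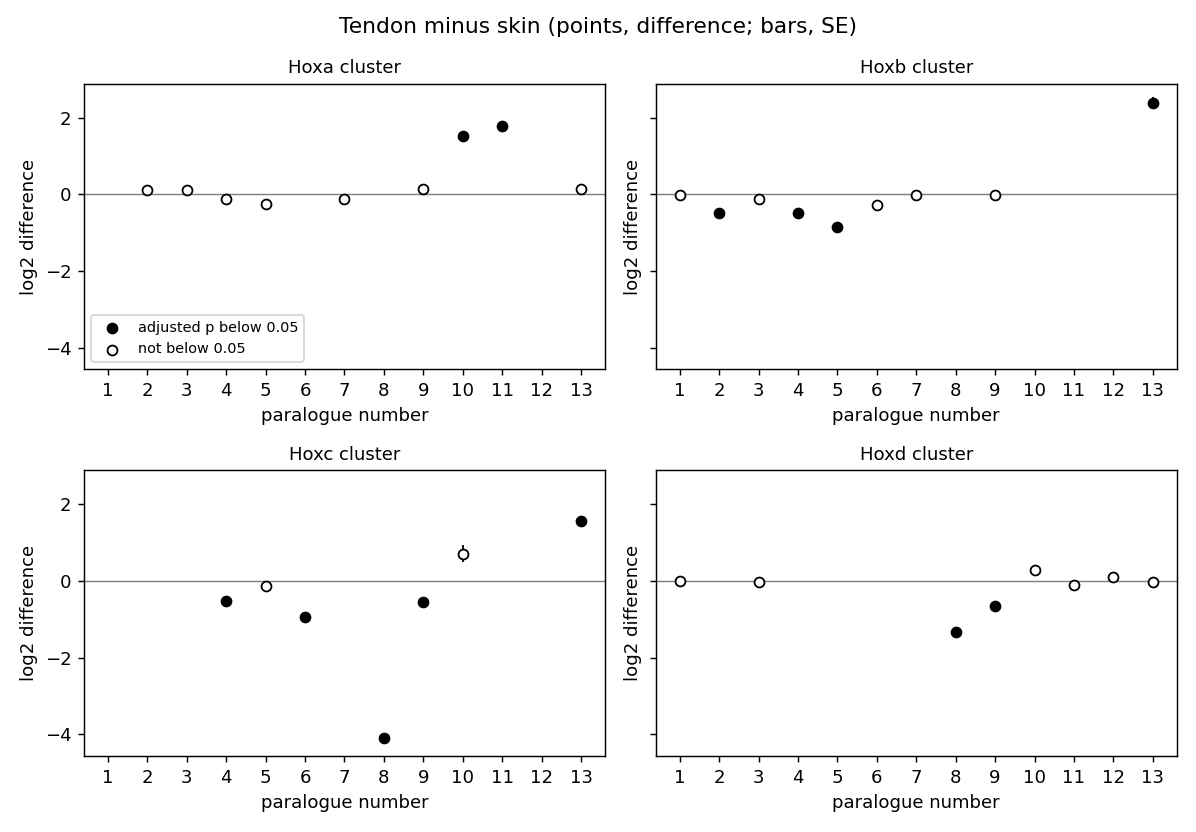
Points give the log2 difference of tendon minus skin by paralogue number in each cluster, bars the SE, filled points an adjusted p below 0.05. Filled points above 0 stand at numbers 10, 11 and 13, those below 0 at numbers 2 to 9, Hoxc8 lowest at -4.10.

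**Figure D4:**
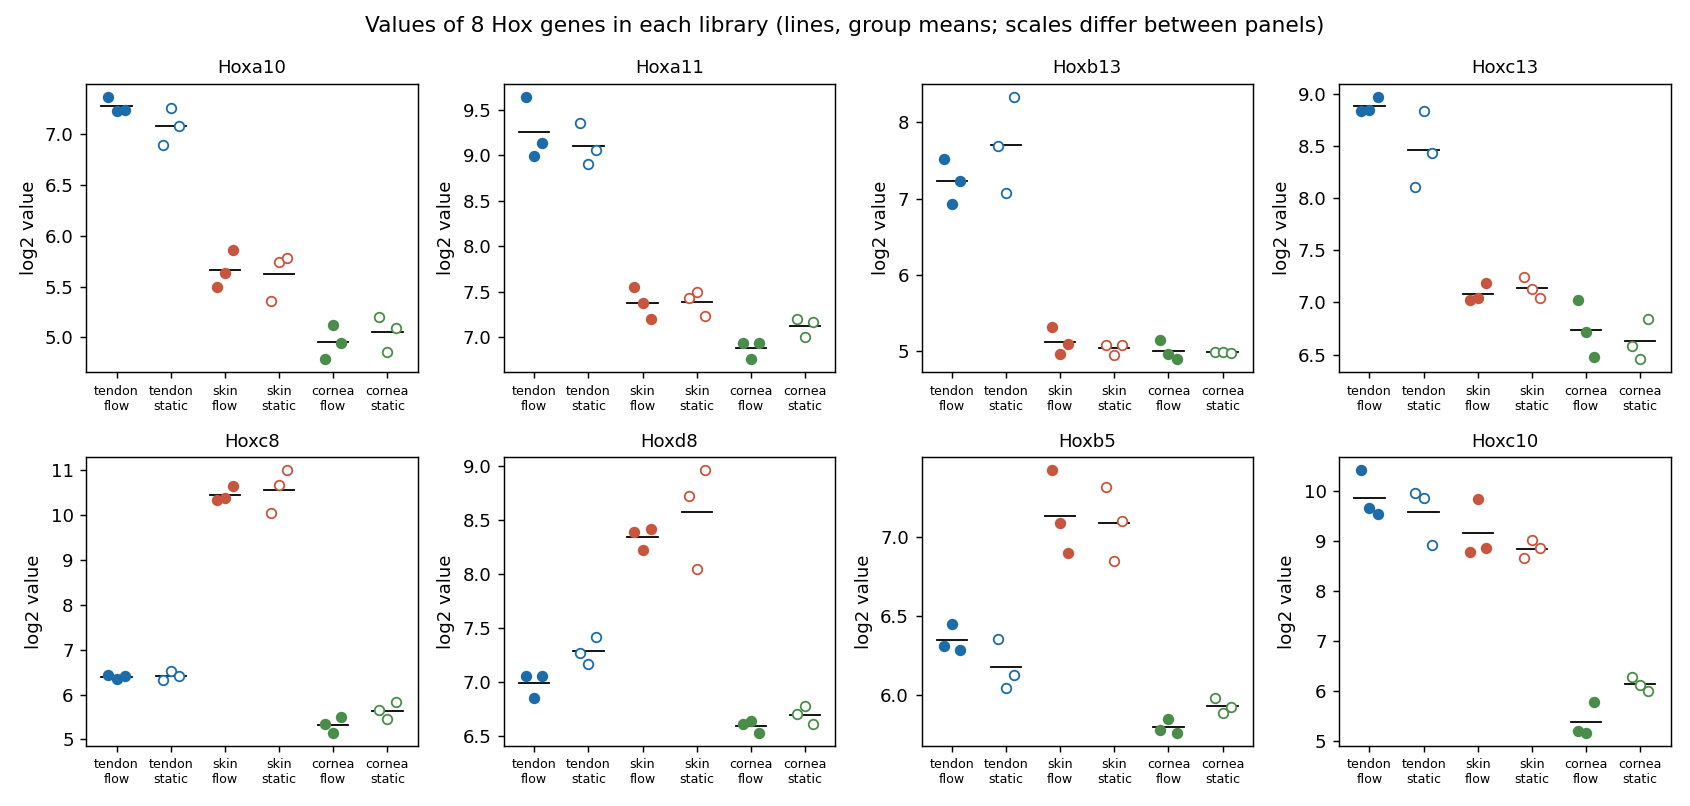
Log2 values of 8 Hox genes in every library, by tissue and state (filled, flow; open, static; lines, group means), each panel on its own scale. Hoxa10, Hoxa11, Hoxb13 and Hoxc13 are highest in tendon, Hoxc8, Hoxd8 and Hoxb5 in skin, and Hoxc10 is high in both tendon and skin, with flow and static libraries of a tissue side by side.

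For 11 of the 33 genes more than 1 probe set was present. For several of them the probe sets differed in their calls, as for Hoxa9, Hoxc5, Hoxb4 and Hoxc6. The representative of Hoxa9 (1421579_at) ran from 7.86 to 8.13 in tendon, 7.68 to 8.12 in skin and 7.57 to 7.90 in cornea, and passed no tissue comparison. Its other probe set (1455626_at) was at 9.53, 9.76 and 9.60 in tendon flow and 8.51, 9.24 and 9.04 in tendon static, at 7.56, 7.77 and 7.81 in skin flow and 6.89, 7.54 and 7.42 in skin static, and at 5.76, 5.95 and 5.81 in cornea flow and 5.66, 5.59 and 6.21 in cornea static. No tissue overlapped another there, and tendon exceeded cornea by 3.45 ± 0.14 and exceeded skin by 1.78 ± 0.14 (adjusted p = 4.7e-10 and 1.2e-06 over all probe sets, limma). On this probe set Hoxa9, numbered below 10, is thus higher in tendon than in skin, an exception to the division by number above. The files used here do not say which transcripts of Hoxa9 each probe set reads.

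Hoxc5 showed the reverse direction in the same way. Its representative (1450832_at, chip A) ran from 5.03 to 5.61 in tendon, 5.06 to 5.56 in skin and 4.91 to 5.23 in cornea, with no call. Its probe set 1439885_at on chip B was at 4.87, 5.16 and 5.27 (lowest, median and highest) in tendon, 6.99, 7.44 and 7.88 in skin and 4.33, 4.67 and 5.00 in cornea. The skin libraries stood apart, with 2.75 ± 0.14 over cornea and -2.30 ± 0.14 in tendon against skin (adjusted p = 6.8e-09 and 7.7e-08 over all probe sets, limma). The last Hoxc5 probe set (1456301_at) differed by 0.38 in skin against cornea. Both probe sets of Hoxd8 ran the same way in all 3 comparisons (1.45 on chip B in skin against cornea, -1.14 in tendon against skin), as did the pair of Hoxb3 (0.35 and 0.52 over cornea for tendon and skin on chip B). The Hoxb3 probe set on chip B (1456229_at) was called in tendon against cornea (adjusted p = 0.019 over all probe sets, limma), where the representative was not. The chip B probe sets of Hoxa5 and Hoxa10 differed by at most 0.07 in any tissue comparison, so the calls of these 2 genes rest on chip A. The second Hoxb4 probe set (1451761_at) passed only in skin against cornea (0.33). It differed by 0.23 in tendon against cornea and -0.10 in tendon against skin (adjusted p = 0.17 and 0.75 over all probe sets, limma). Of Hoxc6, 1427362_x_at ran with the representative (1.22 in skin against cornea and -0.99 in tendon against skin). Hoxc6 probe set 1427454_at did not pass there (0.32 and -0.18, adjusted p = 0.11 and 0.51 over all probe sets, limma). With every probe set tested and a gene counted if any passed, 18 Hox genes were called in tendon against cornea (5.18% of all probe sets passed), 19 in skin against cornea (4.95%) and 15 in tendon against skin (3.03%).

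**Figure D5:**
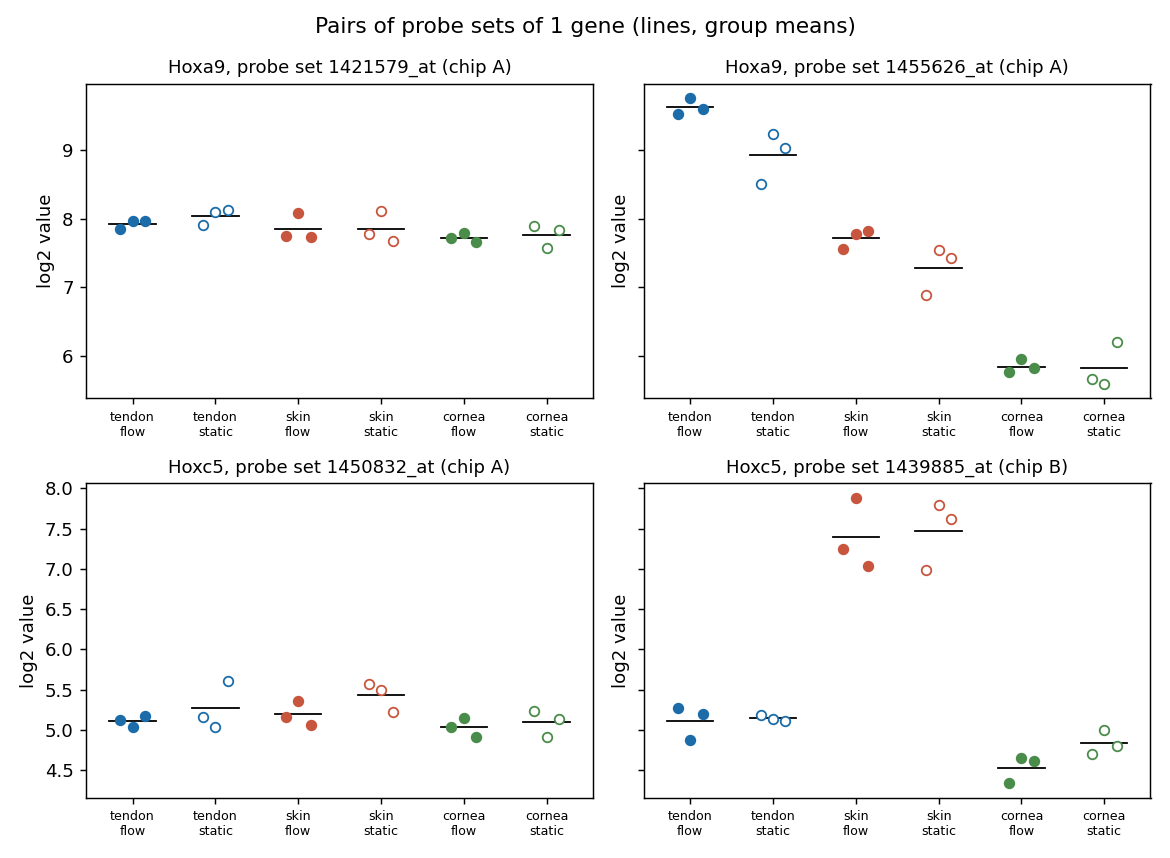
Log2 values in every library for the representative (left) and another probe set (right) of Hoxa9 and Hoxc5, by tissue and state, on 1 scale per gene (lines, group means). The left panels show tissues that overlap, while 1455626_at is highest in tendon and lowest in cornea and 1439885_at is high in the 6 skin libraries.

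No tissue comparison called 12 Hox genes by their representatives, namely Hoxa2, Hoxa3, Hoxa4, Hoxa9, Hoxb1, Hoxb7, Hoxc5, Hoxd1, Hoxd3, Hoxd11, Hoxd12 and Hoxd13. Their values over the 18 libraries spanned 0.40 (Hoxd1) to 0.70 (Hoxc5), and their tissue means differed by at most 0.25 (Hoxa2 and Hoxc5). Hoxb1, the first gene of its cluster and one of the hindbrain, averaged 5.17 ± 0.17 in tendon, 5.17 ± 0.21 in skin and 5.16 ± 0.08 in cornea (SD, n = 6 libraries). Hoxd13, a gene of the digits, averaged 6.28 ± 0.17 in tendon, 6.31 ± 0.18 in skin and 6.30 ± 0.11 in cornea. Whether these genes are silent or their probe sets do not respond was not tested. By level, 13 of the 33 Hox genes had a mean at or above the median probe set of their chip, and of these 13, 8 were called in tendon against cornea, 11 in skin against cornea and 9 in tendon against skin.

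No Hox gene passed for flow against static in any tissue. In tendon 0 of 33 passed (0.0495% of all genes did, limma), and 1 had an unadjusted p below 0.05 (4.2% of all genes). In skin 0 passed (0.0275%, limma), with 0 at an unadjusted p below 0.05 (2.95%). In cornea 0 passed (0.022%, limma), with 2 at an unadjusted p below 0.05 (5.36%). For the mean response over the 3 tissues 0 passed (0.835%, limma), with 1 at an unadjusted p below 0.05 (11%). No other test tool was run for flow. The median Hox difference of flow minus static was -0.03 in tendon, -0.01 in skin and -0.09 in cornea, and the whole range over genes and tissues ran from -0.74 to 0.42. Over all genes the medians were -0.005 in tendon, -0.019 in skin and 0.000 in cornea.

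The smallest flow p-values did not pass after adjustment. In tendon they belonged to Hoxc13 (8.83, 8.84 and 8.97 under flow and 8.10, 8.84 and 8.43 static, 0.42 ± 0.17), Hoxb13 (-0.47 ± 0.22) and Hoxd8 (-0.30 ± 0.17), each with an adjusted p of 1 in limma. In skin they belonged to Hoxb4 (0.21 ± 0.12), Hoxd13 (0.21) and Hoxb9 (-0.22 ± 0.14), with an adjusted p of 1. In cornea they belonged to Hoxd12 (0.30 ± 0.12, adjusted p = 0.90 in limma), Hoxc10 (-0.74 ± 0.30, adjusted p = 0.91) and Hoxa3 (-0.23 ± 0.13, adjusted p = 0.94). Corneal Hoxc10 was at 5.21, 5.17 and 5.79 under flow and 6.28, 6.13 and 6.01 static, so its groups did not overlap, although its adjusted p did not pass. For the mean over tissues Hoxd8 came first (-0.21 ± 0.10, adjusted p = 0.43 in limma), then Hoxc5 and Hoxa3. Of the 18 refits without 1 library, Hoxd8 passed in the one without skin static 2 (-0.30, adjusted p = 0.043), a library whose scan record notes possibly more concentrated material. The test of whether the flow response differs between tissues called 0 Hox genes and 0 of all genes, with 1 Hox gene (and 0.803% of all genes) at an unadjusted p below 0.05 (Hoxc10, adjusted p = 1, limma), followed by Hoxd12 and Hoxc13. Among the other probe sets, 1455626_at of Hoxa9 differed by 0.71 ± 0.20 in tendon under flow (adjusted p = 0.58 over all probe sets, limma).

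Genes that work with or around Hox proteins were given from lists chosen with results of these data known. Of all genes, 5.69% were called in tendon against cornea, 6.02% in skin against cornea and 3.52% in tendon against skin. Of 8 measured Hox cofactors, homeodomain proteins that bind DNA with Hox factors, 1 was higher in tendon than in cornea (Meis2, 0.82 ± 0.15), 3 higher in skin than in cornea (Meis1 1.5 ± 0.15, Meis2 1.03 ± 0.15 and Pknox1 0.31 ± 0.08, the last not without skin flow 3) and 1 lower in tendon than in skin (Meis1, -1.07 ± 0.15, adjusted p = 0.00041, limma). Meis1 averaged 7.19 ± 0.29 in tendon, 8.26 ± 0.35 in skin and 6.77 ± 0.30 in cornea, and so was highest in skin. Of 23 chromatin regulators of the Polycomb and Trithorax groups, which hold Hox genes off or on, only Ezh2 was called, lower in skin than in cornea (-0.80 ± 0.20, adjusted p = 0.019), and not without cornea static 1 or 2, skin flow 2 or skin static 2 (adjusted p up to 0.054). Of 14 axial factors and retinoic acid genes that switch Hox genes on in the embryo, only the receptor Rarb was called, lower in tendon than in cornea (-0.53 ± 0.14, adjusted p = 0.031), and not without cornea flow 3, cornea static 1, tendon flow 1 or tendon static 1 (adjusted p up to 0.085). These 2 single calls, of 23 and of 14 genes, lie near the shares of all genes.

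Factors that mark the head, the eye and the limb also differed between the tissues. Of 17 measured head and eye factors, the same 5 were lower in tendon and in skin than in cornea and 0 were called between tendon and skin (limma, 3 at an unadjusted p below 0.05). Of all genes, 3.08% were lower in tendon and 3.21% lower in skin than in cornea. They were Alx1 (4.75 ± 0.18 in tendon and 4.76 ± 0.09 in skin, against 7.29 ± 0.58 in cornea), Tfap2b (4.42 ± 0.10 and 4.42 ± 0.15, against 6.70 ± 0.22), Foxc1 (-1.58 in tendon and -1.70 in skin against cornea), Foxc2 (-1.0 and -1.10) and Six2 (-0.64 and -1.02). Of 19 measured limb factors, 4 were called in tendon against cornea, 1 higher (En1) and 3 lower (Lhx9, Emx2 and Pitx1), against 5.69% of all genes. The En1 call was lost without any of 8 libraries (cornea flow 1 or 2, cornea static 1 or 2, tendon flow 1, 2 or 3, or tendon static 1, adjusted p up to 0.084), and with arrays centred on their medians or quantile normalised once more. In skin against cornea 4 were called, with Emx2, Tbx15 and En1 higher and Pitx1 lower, against 6.02% of all genes. In tendon against skin 3 were called, against 3.52% of all genes, all lower, namely Lhx9 (6.34 ± 0.24 in tendon and 8.91 ± 0.35 in skin, -2.58 ± 0.18), Emx2 (-1.33 ± 0.11) and Tbx15 (-0.77 ± 0.11). Pitx1, which marks the hindlimb, was lower in both tendon and skin than in cornea (-0.55 ± 0.12 and -0.48 ± 0.12), the skin call not without skin flow 1 or 3 (adjusted p = 0.055, limma).

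The genes just outside the clusters were called no more often than genes at large. Of 40 measured neighbours of the 4 clusters, 1 was called in tendon against cornea (Chn1 on the Hoxd13 side, -0.42 ± 0.09, against 5.69% of all genes). In skin against cornea 2 were called (Chn1, -0.47 ± 0.09, and Cbx5 beside the Hoxc cluster, -0.44 ± 0.11, against 6.02% of all genes). In tendon against skin 0 were called, against 3.52% of all genes. There 4 had an unadjusted p below 0.05 (limma), as 13.7% of all genes did. The Cbx5 call was lost without any of 6 libraries, namely cornea flow 3, cornea static 1 or 3, skin flow 1 or 3, or skin static 1 (adjusted p up to 0.059).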

How the data were processed

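Each library was hybridised to both arrays of the Affymetrix MOE430 set. The deposited values are log2 expression values, 1 per probe set and array, made with RMA (background correction, quantile normalisation and summary of the probes of a set) per the submitters' processing notes. Its version and probe definitions are not stated in the sources used here. Array number limits the precision (3 libraries a group, 6 a tissue), and no detection calls were used.

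Probe sets were named from the platform annotation. Of the probe sets of a gene, 1 stood for it, with chip A taken before chip B, names free of a cross-hybridisation suffix before others, and then the highest mean. limma 3.58.1 in R 4.3.3 fitted 6 group means to all 18 libraries of each chip (12 residual degrees of freedom, prior 4.05 on chip A and 4.29 on chip B). P-values were two-sided and adjusted by Benjamini-Hochberg over 18193 genes, with calls below 0.05. The fit was tested on simulated data with independent noise in each library, which leaves out the shared deviation described below.

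The members, lists and tests were chosen with earlier results of these data known. Library values were given for up to 3 called genes of largest difference in each direction, cluster and tissue comparison, and for flow the 3 smallest p-values were named. Genes outside this rule were named to account for every member.

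Alternatives left out each library, or used the replicate number, the scan batch or a sample date as a block. Others changed the normalisation, variance model, filter, probe set rule and adjustment. The date is the one in the sample name of the scan record, and what it dates is not stated. The libraries of scan batch 1 carry no date and were put in an undated block of their tissue. Same-numbered flow and static libraries deviated together in tendon (r of 0.617, 0.375 and 0.42) and skin (0.486, 0.765 and 0.571). In cornea the same-numbered pairs gave -0.216, -0.436 and 0.405. The corneal pairs that share a date were flow 2 with static 1 (0.672) and flow 3 with static 3 (0.405). The main tissue comparisons treat the 6 libraries of a tissue as independent, so their SE and p-values do not account for this shared deviation. Scan batch 1 holds 5 libraries (tendon flow 1, tendon static 1, skin flow 1, skin static 1 and cornea flow 1) and batch 2 the other 13. Promoter sequences are RefSeq's, of build GRCm38.p6, and 19 of the 33 genes matched.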

Additional observations from a re-analysis of the deposited data

How the results depend on the processing

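No result reversed. In tendon against cornea the count of 16 Hox genes became 10 between the flow groups and 9 between the static groups of the same fit. It became 10 within scan batch 2 and 8 among genes at or above the chip median, where 13 Hox genes were tested and not 33. Leaving out 1 library in turn gave 12 to 16 genes there, 14 to 18 in skin against cornea, 13 to 14 in tendon against skin and 0 to 1 for flow over the 3 tissues, and 0 for flow in each tissue and for its difference between tissues. The lowest tendon count, 12, came without tendon static 1 or cornea flow 3. The replicate block gave 16, 17 and 14 genes in tendon against cornea, skin against cornea and tendon against skin and 0 for flow, and moved no count of Hox genes by over 1.5 times, though Hoxc13 in skin against cornea did not pass (0.43, adjusted p = 0.053, limma). Under the other settings the counts ran from 12 to 19 in skin against cornea and from 9 to 15 in tendon against skin, each within 1.5 times. Of the called genes 9 of 16, 14 of 17 and 8 of 13 kept their call in every setting. Sample date as a block also called 0 Hox genes for flow (limma). The cause of these changes was not tested. By construction, some settings took fewer libraries into the compared means or the fit, or adjusted over fewer genes. Dim probe sets compress differences, so a missed call there does not show that tissues are equal.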

Other observations

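Some probe sets that name an opposite strand transcript, or 2 Hox genes at once, were not members. Hoxb5os, transcribed opposite Hoxb5, averaged 8.31 ± 0.15 in tendon and 9.10 ± 0.44 in skin, against 7.36 ± 0.13 in cornea (SD, n = 6 libraries each), and no tissue overlapped another. A probe set of Hoxa11os on chip A averaged 5.93 ± 0.42 in tendon, 5.12 ± 0.18 in skin and 5.01 ± 0.18 in cornea, with every tendon library (5.49 to 6.73) above the skin (4.92 to 5.45) and corneal (4.73 to 5.28) ones. The other Hoxa11os probe set, on chip B, averaged 4.39 ± 0.19 in tendon, 4.36 ± 0.16 in skin and 4.23 ± 0.17 in cornea. A probe set of Hoxd3os1 averaged 4.51 ± 0.24 in tendon, 4.99 ± 0.14 in skin and 4.33 ± 0.18 in cornea. The probe set shared by Hoxb8 and Hoxb7 averaged 6.91 ± 0.08 in tendon, 7.06 ± 0.13 in skin and 6.64 ± 0.14 in cornea, and which of these genes it read was not tested. These differences were not tested.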
